A study of Mus musculus with 6 samples.

Results

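The genes described here encode 9 lysosomal cathepsins, Ctsa, Ctsb, Ctsc, Ctsd, Ctsh, Ctsk, Ctsl, Ctss and Ctsz, and cystatin C (Cst3). Cystatin C is a secreted inhibitor of the cysteine cathepsins among them. The 10 genes were chosen by name, with earlier results of these data known, from the 38293 genes in the table of counts. All 10 passed the filter on low counts. In hearts after myocardial infarction (MI), none of them passed the test between genotypes. A single WT heart stood above the other 5 libraries for 9 of the 10 genes, and Ctsd, the most abundant of them, was nearly level in every heart.

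Lysosomes break down material that a cell takes up or recycles, and cathepsins are the proteases that cut its proteins in their acid lumen. Most are cysteine proteases, whereas Ctsd is an aspartic protease and Ctsa a serine carboxypeptidase. They are made as inactive precursors, sorted to the lysosome by mannose 6-phosphate receptors and activated by cleavage. Macrophages are rich in them, and cells that are active in tissue repair also release them to the outside, where cysteine cathepsins can cut collagen, elastin and other matrix proteins and where cystatin C holds them in check.

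The series holds 1 RNA-seq library from each of 3 WT and 3 Zeb2 cKO hearts, taken on day 14 after the left anterior descending (LAD) coronary artery had been tied off for good. All mice were adults on a backcrossed C57BL/6J strain and carried loxP sites in both Zeb2 alleles (Zeb2 fl/fl), so that WT means Zeb2 fl/fl without Cre and Zeb2 cKO means Zeb2 fl/fl with a Cre recombinase driven by the promoter of Myh6 (the α-myosin heavy chain). Zeb2 encodes a zinc finger transcription factor that binds E-boxes and mostly represses. The comparison asks what cardiomyocyte Zeb2 does for gene expression in the infarcted heart. The Cre acts in cardiomyocytes alone, but RNA of every cell type in the tissue was counted, and fewer cells of a type cannot be told apart from less RNA per cell. By the labels the tissue is from the border of the infarct, by the methods from the remote zone.

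The libraries held between 37288174 and 51136331 counts, of which 60.5% to 67.0% fell on the 37 mitochondrially encoded genes. The unit used below is CPM, a gene's counts relative to the library size after TMM normalization in edgeR, and 14746 genes were tested. Zeb2 itself was at 61.3, 116 and 71.9 CPM in WT replicates 1, 2 and 3 and at 59.6, 72.6 and 66.5 CPM in Zeb2 cKO replicates 1, 2 and 3. The groups overlapped, and its log2 fold change (Zeb2 cKO over WT, as throughout) was -0.33 with a standard error (SE) of 0.25. Without WT replicate 2 it was -0.0058, so the deletion is not visible in these tissue counts. WT replicate 2 stood apart from the other 5 libraries in many genes, being the highest library for 35.2% and the lowest for 34.6% of the genes tested. The values of the cathepsins are therefore given with and without it.

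Promoter sequences of RefSeq (GRCm38.p6, the build of the counts) matched 8 of the 10 genes, all but Ctsb and Ctsh, with 9 start sites, since Ctsa has 2. The starts of Ctsd, Ctsl and Cst3 and the second start of Ctsa lie inside the genes as Gencode draws them. The 250 bases before the start are shown for 4 of these sites, 5′ to 3′ on the strand of the gene: Ctsd, the most even of the 10 genes across hearts, Ctsk and Ctss, neighbours on chromosome 3 whose levels in WT hearts spread the most relative to their mean, and the second start of Ctsa, where the letters of 2 kinds of E-box occur. Capitals mark the motifs found: CACGTG, the E-box read by TFEB and its relatives, which drive lysosomal genes, CACCTG, the E-box read by ZEB proteins, which is CAGGTG when read from the other strand, and the core of the interferon response element, which holds GAAA 2 times with 2 free bases between. The positions are chr7:142387828-142388077 on the minus strand for Ctsd, and on the plus strand chr3:95498960-95499209 for Ctsk, chr3:95526536-95526785 for Ctss and chr2:164833523-164833772 for Ctsa.
Ctsd: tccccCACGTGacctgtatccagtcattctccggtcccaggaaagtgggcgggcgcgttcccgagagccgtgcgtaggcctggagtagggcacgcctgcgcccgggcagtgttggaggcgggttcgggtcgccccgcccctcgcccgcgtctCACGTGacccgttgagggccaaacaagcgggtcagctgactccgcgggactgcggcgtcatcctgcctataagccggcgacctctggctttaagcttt
Ctsa: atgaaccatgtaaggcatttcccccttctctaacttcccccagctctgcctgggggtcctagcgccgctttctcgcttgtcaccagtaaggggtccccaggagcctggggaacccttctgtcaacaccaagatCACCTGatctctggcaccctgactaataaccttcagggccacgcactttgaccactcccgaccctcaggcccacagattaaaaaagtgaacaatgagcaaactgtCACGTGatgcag
Ctsk: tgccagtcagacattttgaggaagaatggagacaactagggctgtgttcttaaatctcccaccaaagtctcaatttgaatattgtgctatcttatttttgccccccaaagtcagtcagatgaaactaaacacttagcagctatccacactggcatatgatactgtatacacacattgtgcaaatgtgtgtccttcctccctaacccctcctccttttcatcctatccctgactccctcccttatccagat
Ctss: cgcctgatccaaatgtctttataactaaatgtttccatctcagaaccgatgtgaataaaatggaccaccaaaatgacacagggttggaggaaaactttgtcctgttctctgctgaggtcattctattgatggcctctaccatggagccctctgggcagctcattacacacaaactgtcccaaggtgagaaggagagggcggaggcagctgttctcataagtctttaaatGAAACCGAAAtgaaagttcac
The motifs were chosen after these sequences had been read, and both strands were searched. CACGTG, which reads the same on both strands, was found before 3 of the 9 starts, those of Ctsd, Ctsl and the second start of Ctsa, and before 6.02% of all 32851 starts. In Ctsd it stood 2 times, from positions -245 and -98 counted back from the start. The ZEB letters stood before both starts of Ctsa, at -228 and -117, and before 17.2% of all starts. The interferon response core stood before Ctss at -21 and before 2.98% of all starts, and the core letters of the macrophage factor PU.1, GAGGAAGT or ACTTCCTC, stood before Ctsc at -151 and before 2.44% of all. The stretch before Ctsk held none of the 4 motifs. Such matches describe the letters and show no binding.

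Per length, Ctsd had the highest mean level of the 10 genes. Divided by the length of the annotated exons, the mean level over the 6 libraries was 228 CPM per kb for Ctsd and 122 for Cst3, followed by 41.1 for Ctsb. Then came 4 genes between 17.2 and 11.8 CPM per kb, namely Ctss, Ctsz, Ctsa and Ctsl. Ctsc (6.12), Ctsk (4.47) and Ctsh (3.75) were the lowest. Ctsd lay above Cst3 and Cst3 above Ctsb within each of the 6 libraries, but among neighbours in this order only the ranges of Cst3 (91.2 to 211) and Ctsb (35.1 to 54.5) were clear of each other. The middle of the order depended on the library, as Ctss was anywhere from rank 3 to rank 7. The order also depended on the length used. When the longest principal transcript stood in for all exons, Ctsc stood above Ctsz and Ctsl, Ctsh (10.4 CPM per kb) stood above Ctsk (4.47), and Ctsd was above Cst3 in 5 of the 6 libraries, the exception being WT replicate 2 (268 against 311 CPM per kb).

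**Figure D1:**
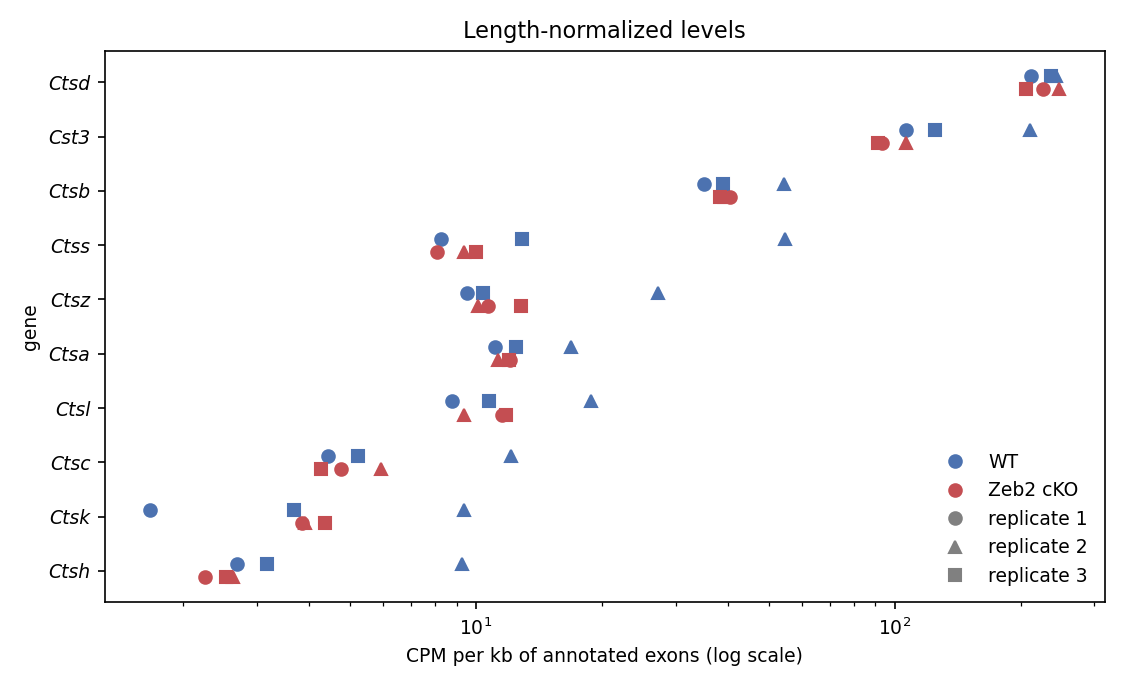
Levels of the 10 genes in the 6 libraries as CPM per kb of annotated exons (log axis, blue for WT, red for Zeb2 cKO, marker shape for the replicate number), ordered by their mean from 228 for Ctsd to 3.75 for Ctsh. WT replicate 2 (blue triangles) lies to the right of the other libraries for each gene but Ctsd.

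Between genotypes no cathepsin passed the test. edgeR's quasi-likelihood test called 0 of the 10 genes at an adjusted p of 0.05, beside 0% of all genes tested in either direction. At an unadjusted p of 0.05 it called 0 of the 10, beside 280 genes in all (1.9%). DESeq2's Wald test called 0 of the 10 at the adjusted level and 3 at the unadjusted level (2.45% of all genes), and 2 other genes at the adjusted level, Slc46a2 and Mrap2, which are named because of that count. The adjusted p was 0.957 for each of the 10 genes except Ctsd, for which it was 0.991 (edgeR, Benjamini-Hochberg adjustment over all genes tested). All 10 log2 fold changes were below 0, as were those of 51.4% of all genes, with a median of -0.39 beside -0.0069 over all genes. Of the 10, 7 were under -0.2 (22.6% of all genes) and 0 over 0.2 (15.9%).

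That pattern rested on 1 library. Without WT replicate 2, 3 of the 10 genes were under -0.2 (11.7% of all genes), 1 was over 0.2 (14.2%), 3 were below 0 (49.1%) and the median was 0.032. An unadjusted p of 0.05 from edgeR was then met by 0 of the 10 and by 2.63% of all genes. Leaving out WT replicate 1 or WT replicate 3 instead moved the median to -0.72 or -0.58. An unadjusted p of 0.05 from edgeR was met by 3 or 2 of the 10 in these settings. Of the 15075 genes tested it was met by 1134 or 379. Ctsh, Cst3 and Ctss were the 3 that stayed under -0.2 without WT replicate 2.

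**Figure D2:**
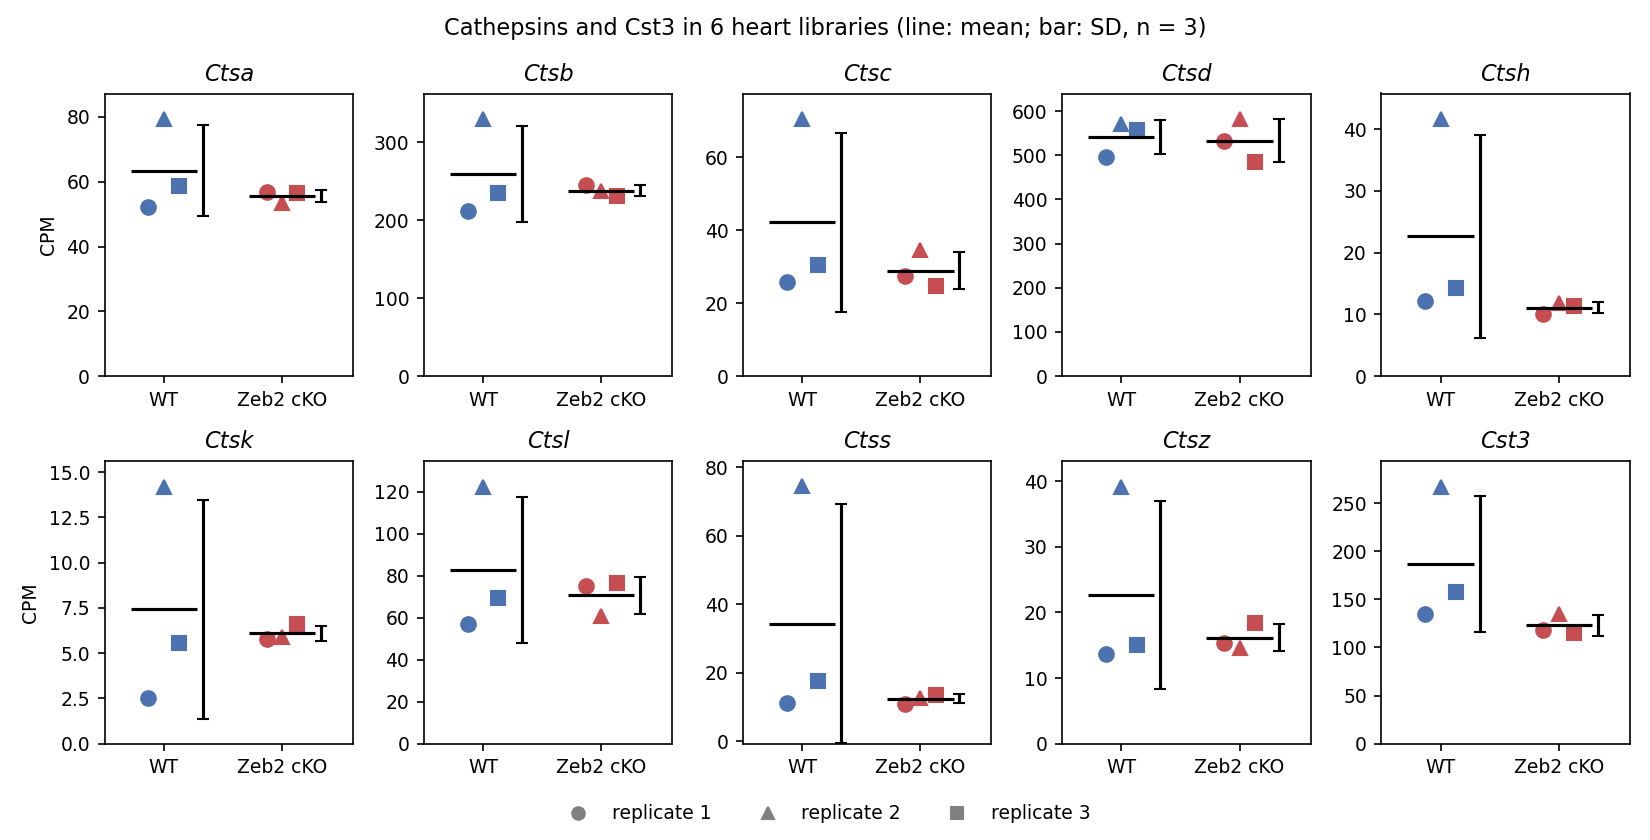
CPM of each gene in WT (blue) and Zeb2 cKO (red) hearts, with 1 point per library, the mean as a line and the SD (n = 3) as a bar, on linear axes. The Zeb2 cKO points lie close together, and 1 WT point, replicate 2, sits far above the other 5 libraries for Ctss, Ctsh, Ctsk, Ctsz and Ctsc, whose WT bars are long as a result and for Ctss reach just under 0.

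Cathepsin D (ENSMUSG00000007891, chromosome 7, 142375911 to 142388038, minus strand), the aspartic protease that also activates other lysosomal enzymes, was at 497, 570 and 556 CPM in WT replicates 1, 2 and 3 and at 531, 582 and 485 CPM in Zeb2 cKO replicates 1, 2 and 3. The lowest and the highest of the 6 libraries were both Zeb2 cKO, and the WT libraries lay between them. The mean was 541 ± 38.7 CPM in WT, against 533 ± 48.3 CPM for Zeb2 cKO (SD, n = 3 each), and the log2 fold change was -0.02 (SE 0.16). A later annotation sets a second gene, Gm49369, on the same strand over 34.4% of the Ctsd exons. Gm49369 is not among the genes counted here, so reads of both would stand under Ctsd.

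Cathepsin A (ENSMUSG00000017760, chromosome 2, 164832873 to 164841032, plus strand) trims C-termini and protects β-galactosidase and neuraminidase in a shared complex. It was at 52.3, 79.3 and 58.7 CPM in the WT replicates, against 56.8, 53.4 and 56.5 CPM in Zeb2 cKO replicates. Only WT replicate 2 stood apart, and the log2 fold change of -0.19 (SE 0.17) was 0.0050 without it. The transcripts of Ctsa share 19.0% of their length with Pltp and Neurl2, which lie on the opposite strand, so its counts are uncertain if strand was not used in counting. The enzymes that Ctsa protects were at 7.83, 12.8 and 7.47 CPM in WT and 4.38, 7.01 and 6.44 CPM in Zeb2 cKO hearts for β-galactosidase (Glb1), and between 7.69 and 9.82 CPM in the 6 libraries for neuraminidase (Neu1). Glb1 was below every WT library in each Zeb2 cKO library, as for 2.97% of all genes. Its log2 fold change of -0.66 (SE 0.27) was -0.36 without WT replicate 2, whereas Neu1 had one of -0.0051 (SE 0.13).

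Cathepsins B and L are the broad cysteine endopeptidases of most cell types. Ctsb (ENSMUSG00000021939, chromosome 14, 63122462 to 63145923, plus strand) was at 213, 330 and 236 CPM in the WT replicates, against 245, 237 and 231 CPM in Zeb2 cKO replicates. All 3 Zeb2 cKO values lay within the WT range, and the log2 fold change of -0.12 (SE 0.20) was 0.09 without WT replicate 2. Ctsl (ENSMUSG00000021477, chromosome 13, 64359337 to 64370890, minus strand) was at 56.8, 122 and 69.6 CPM in the WT replicates, against 75.02, 60.7 and 76.5 CPM in Zeb2 cKO replicates. Here 2 of the Zeb2 cKO libraries stood above 2 of the WT libraries, and the log2 fold change of -0.23 (SE 0.29) became 0.17 without WT replicate 2. Both genes share sequence with others, Ctsb over 16.3% of its longest transcript (with Fdft1, on the opposite strand) and Ctsl over 31.6%, which makes their counts less certain.

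Cathepsin S, the cysteine protease of antigen-presenting cells that cleaves the invariant chain and keeps its activity at neutral pH, varied the most. Ctss (ENSMUSG00000038642, chromosome 3, 95526786 to 95556403, plus strand) was at 11.2, 74.4 and 17.5 CPM in the WT replicates, against 10.99, 12.7 and 13.5 CPM in Zeb2 cKO replicates. WT replicate 2 was at 5.86 times the median of the other 5 libraries, which spanned a range of 1.59 times from lowest to highest. The groups overlapped because WT replicate 1 lay within the Zeb2 cKO values (exact permutation test, two-sided p = 0.3, where 3 against 3 allow no p under 0.1). The log2 fold change was -1.47 (SE 0.67) with all libraries and -0.20 (SE 0.19) without WT replicate 2.

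Cathepsin K, the collagenase of osteoclasts that fibroblasts also make, was the rarest by CPM. Ctsk (ENSMUSG00000028111, chromosome 3, 95499256 to 95509362, plus strand) ends 17423 bases before the start of Ctss. It was at 2.52, 14.2 and 5.55 CPM in the WT replicates, against 5.80, 5.90 and 6.59 CPM in Zeb2 cKO replicates. The WT group held both the lowest and the highest library, and the 3 Zeb2 cKO values lay together between them. The log2 fold change was -0.29 (SE 0.55), and without WT replicate 2 it was 0.60 (SE 0.29), the largest shift to the other side of 0 among the 10 genes, with every Zeb2 cKO library above the remaining 2 WT libraries (8.07% of all genes). Ctsk was counted from 95 to 623 reads in a library, the fewest of the 10.

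Cathepsins C, H and Z act mainly from the ends of proteins. Ctsh (ENSMUSG00000032359, chromosome 9, 90054152 to 90076089, plus strand), an aminopeptidase, was at 12.1, 41.6 and 14.3 CPM in the WT replicates, against 10.1, 11.8 and 11.4 CPM in Zeb2 cKO replicates. It was the only one of the 10 genes whose groups did not overlap, with every Zeb2 cKO library below every WT library, as for 2.97% of all genes. None of the 10 had every Zeb2 cKO library above every WT library, which 3.39% of all genes had. The gap was small, 11.8 against 12.1 CPM, and the log2 fold change of -1.03 (SE 0.46; exact permutation test, two-sided p = 0.1, the smallest possible) was -0.25 (SE 0.12) without WT replicate 2. The groups of Ctsh still did not overlap then, as for 7.46% of all genes. Without WT replicate 1, Ctsa, Ctss and Cst3 were apart as well (12.1% of all genes), and without Zeb2 cKO replicate 2, Cst3 was (5.28%).

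Ctsc (ENSMUSG00000030560, chromosome 7, 88278085 to 88310888, plus strand), a dipeptidyl peptidase that activates the serine proteases of immune cell granules, was at 25.8, 70.4 and 30.4 CPM in the WT replicates, against 27.6, 34.5 and 24.7 CPM in Zeb2 cKO replicates. Ctsz (ENSMUSG00000016256, chromosome 2, 174427493 to 174439039, minus strand), a carboxypeptidase, was at 13.7, 39.2 and 15.0 CPM in the WT replicates, against 15.4, 14.6 and 18.4 CPM in Zeb2 cKO replicates. WT replicate 2 was at 2.55 times the median of the other libraries for Ctsc and at 2.62 times for Ctsz, and the other 2 WT libraries overlapped with the Zeb2 cKO libraries. The log2 fold changes were -0.54 (SE 0.38) for Ctsc and -0.49 (SE 0.40) for Ctsz, and 0.045 and 0.18 without WT replicate 2.

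Cystatin C, the tight-binding inhibitor of cysteine cathepsins that most cells secrete, had its lowest values in Zeb2 cKO hearts, but the difference did not pass the test. Cst3 (ENSMUSG00000027447, chromosome 2, 148871722 to 148875692, minus strand) was at 134.9, 267 and 158 CPM in the WT replicates, against 118, 135.0 and 116 CPM in Zeb2 cKO replicates. Only Zeb2 cKO replicate 2 reached WT replicate 1. The means were 187 ± 70.7 CPM in WT, against 122.9 ± 10.6 CPM for Zeb2 cKO (SD, n = 3 each), and the log2 fold change was -0.60 (SE 0.27; exact permutation test, two-sided p = 0.2). Without WT replicate 2 it was -0.25 (SE 0.12), beside -0.25 for Ctsh and -0.20 for Ctss.

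**Figure D3:**
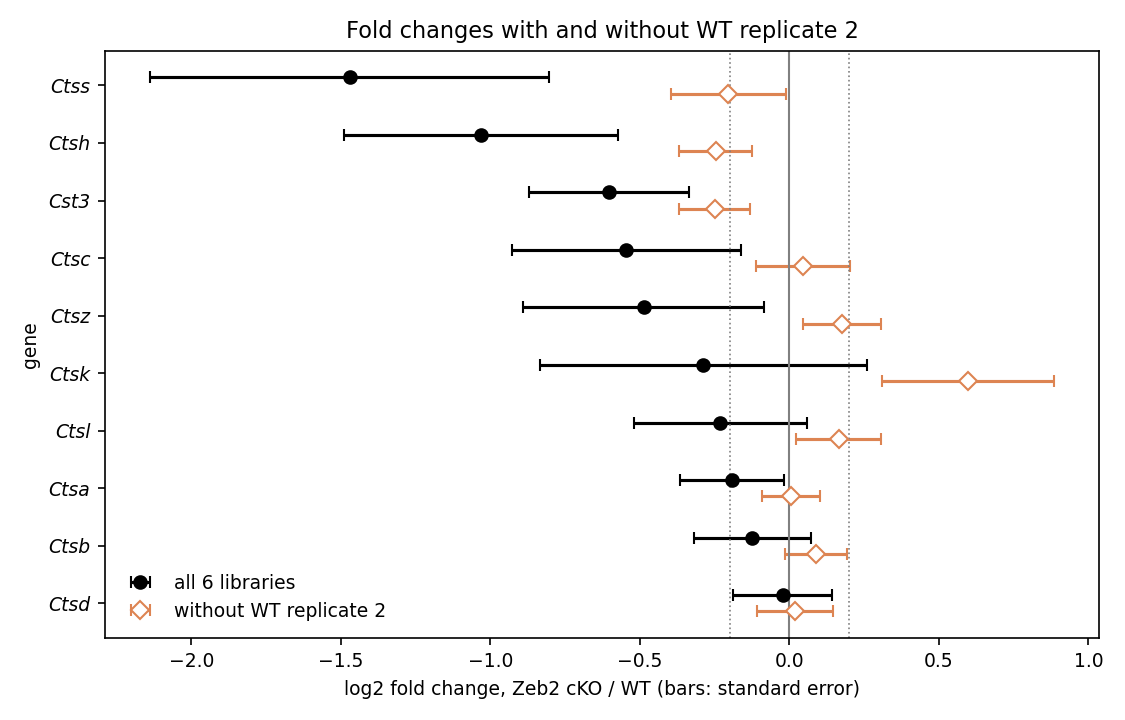
Log2 fold change of each gene (Zeb2 cKO over WT) with its standard error, from all 6 libraries (black) and without WT replicate 2 (open diamonds), with dotted lines at -0.2 and 0.2. Values run from -1.47 (Ctss) to -0.02 (Ctsd) with all libraries and from -0.25 (Cst3) to 0.60 (Ctsk) without WT replicate 2.

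How far WT replicate 2 stood out differed from gene to gene. Measured as log2 CPM minus the mean of the 6 libraries, it was 2.10 for Ctss, 1.51 for Ctsh, 1.24 for Ctsk, 1.12 for Ctsz and 1.09 for Ctsc. Smaller deviations of 0.85 for Cst3, 0.72 for Ctsl, 0.43 for Ctsa and 0.42 for Ctsb followed, and Ctsd stood at 0.090. For 5 of the 10 genes, those with a deviation over 1, WT replicate 2 was more than 2 times the median of the other libraries, as it was for 9.75% of all genes. Averaged over the 10 genes, WT replicate 2 was at 0.96, WT replicates 1 and 3 were at -0.39 and -0.052, and the Zeb2 cKO replicates lay between -0.21 and -0.15.

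**Figure D4:**
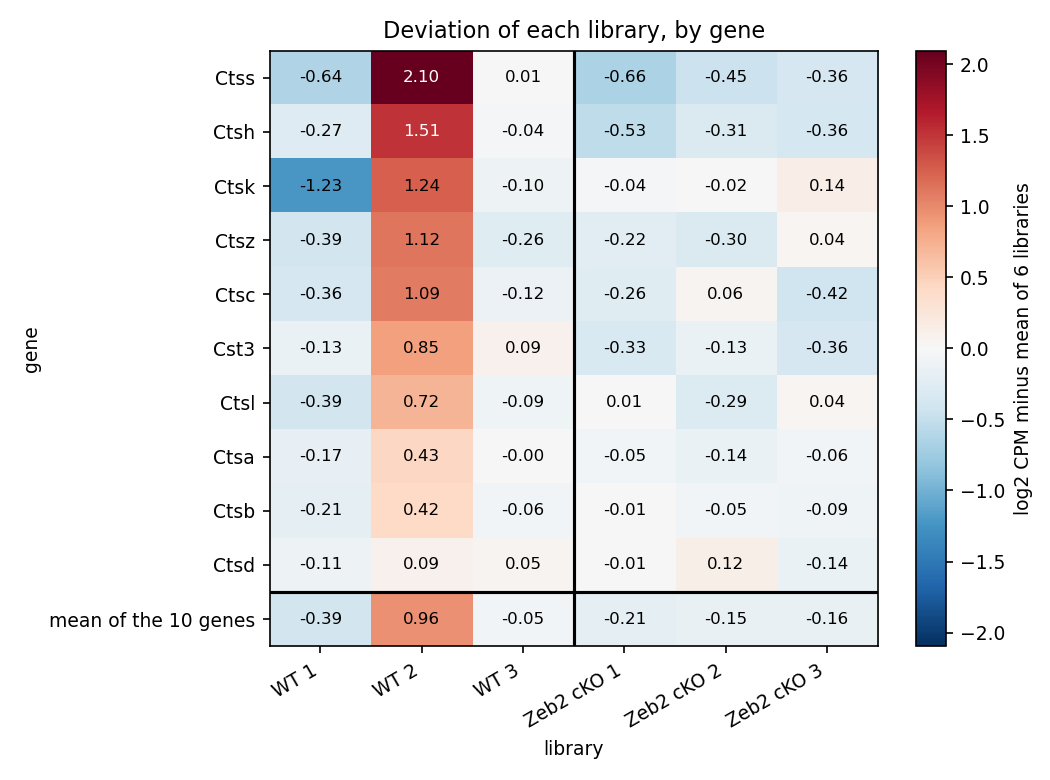
Deviation of each library from the mean of the 6 libraries (log2 CPM, red above and blue below), for each gene and, in the last row, for the mean of the 10 genes. The column of WT replicate 2 is red from 2.10 (Ctss) down to 0.090 (Ctsd), while the Zeb2 cKO columns stay between -0.66 and 0.14.

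The make-up of the cysteine cathepsin pool moved with that library. In CPM per kb, Ctsb made up 49.9%, 29.3% and 45.8% of the summed cysteine cathepsins in WT replicates 1, 2 and 3 and between 45.6% and 49.6% in Zeb2 cKO hearts. Ctss made up 11.7%, 29.4% and 15.2% in the WT replicates and between 9.91% and 11.9% in Zeb2 cKO hearts. By the length of annotated exons, Ctss was thus level with Ctsb in WT replicate 2, at 54.8 against 54.5 CPM per kb. It was well below Ctsb in the other 5 libraries. By the longest principal transcript, Ctss was below Ctsb in WT replicate 2 too, at 54.9 against 69.5 CPM per kb.

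Set against their inhibitor, the 7 cysteine cathepsins gave overlapping groups per kb and separate groups in CPM. Their summed level per kb divided by that of Cst3 was 0.661, 0.882 and 0.682 in the WT replicates, against 0.876, 0.755 and 0.920 in Zeb2 cKO replicates, with means of 0.741 ± 0.122 and 0.850 ± 0.0854 (SD, n = 3 each; exact permutation test, two-sided p = 0.3). WT replicate 2 was the highest WT library here as well. Without it every Zeb2 cKO ratio per kb lay above the remaining WT ratios. The difference of the means was then 0.179, against 0.109 with all libraries. Without length normalization, so that the abundant Ctsb weighed more, the ratio was 2.48, 2.59 and 2.46 in the WT replicates, against 3.30, 2.80 and 3.31 in Zeb2 cKO replicates, which did not overlap (exact permutation test, two-sided p = 0.1, the smallest that 3 against 3 allow). Taken singly per Cst3, 3 of the 9 cathepsins were higher in every Zeb2 cKO than in every WT library, namely Ctsa, Ctsb and Ctsd, beside 30.4% of all genes set against Cst3 in the same way. Of these 3, only Ctsb is a cysteine cathepsin, the kind that cystatin C inhibits. Ctsd per Cst3 was at 3.68, 2.13 and 3.52 in the WT replicates, against 4.50, 4.31 and 4.20 in Zeb2 cKO replicates. Without WT replicate 2, 7 of the 9 were higher, all but Ctsh and Ctss, beside 33.8% of all genes.

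Other genes of the lysosome, from 6 lists written with earlier results of these data known, had log2 fold changes mostly below 0 with all libraries and around 0 without WT replicate 2. Of 79 genes tested, 0 passed the adjusted test, 35 had log2 fold changes under -0.2 and 5 over 0.2, beside the 22.6% and 15.9% of all genes, with a median of -0.16. Without WT replicate 2, 4 were under -0.2 and 7 over 0.2, beside 11.7% and 14.2% of all genes, with a median of 0.043. The count over 0.2 was 2 without Zeb2 cKO replicate 1 and 9 without Zeb2 cKO replicate 3.

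Among the other cathepsins, 2 of 14 were abundant enough to test, and 9 had no count in any library, among them most of the placental cathepsins. Ctso had a log2 fold change of -0.36 (SE 0.31) and Ctsf one of 0.088 (SE 0.14), and without WT replicate 2 these were 0.099 and 0.065. Among the other cystatins 3 of the 20 in the table were tested, and the intracellular inhibitor Cstb was at 3.16, 9.07 and 3.65 CPM in the WT replicates, against 4.26, 3.71 and 3.96 CPM in Zeb2 cKO replicates, whereas the secreted Cst6 was between 0.737 and 1.27 CPM in all 6. The high library of Cstb was WT replicate 2, as for Cst3, and its log2 fold change of -0.41 (SE 0.40) was 0.23 without that library.

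Of the other lysosomal peptidases 2 of 8 were under -0.2 and 0 over 0.2, with a median of -0.17. Scpep1, a serine carboxypeptidase, was at 8.12, 37.8 and 10.1 CPM in the WT and between 8.81 and 9.59 CPM in Zeb2 cKO hearts, and Dpp7, a dipeptidyl peptidase, was at 3.05, 11.6 and 3.57 CPM in the WT and between 3.04 and 4.36 CPM in Zeb2 cKO hearts. WT replicate 2 was again the library that stood out, and the log2 fold changes of -1.01 (Scpep1) and -0.69 (Dpp7) were 0.037 and 0.19 without it. Of the glycosidases, lipases and activators 21 of 30 were under -0.2 and 1 over 0.2 (median -0.31). Besides Glb1, Galc, which removes galactose from myelin lipids, had groups that did not overlap, though by a gap of 5.516 against 5.522 CPM only, at 5.522, 8.02 and 6.35 CPM in the WT replicates, against 5.516, 4.72 and 5.397 CPM in Zeb2 cKO replicates (log2 fold change -0.35, SE 0.17, and -0.18 without WT replicate 2).

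Of the membrane and proton pump genes 7 of 25 were under -0.2 and 2 over 0.2, with a median of -0.074. Atp6v0d2, the pump subunit of osteoclasts and macrophages, was at 0.345, 3.33 and 0.234 CPM in the WT replicates, against 0.1998, 0.230 and 0.0931 CPM in Zeb2 cKO replicates, for a log2 fold change of -2.91 (SE 1.09) that was -0.74 without WT replicate 2. Slc17a5, the sialic acid transporter, had one of -0.41 (SE 0.19), and of -0.23 without that library. Atp6v0d2 and Slc17a5 were lower in every Zeb2 cKO than in every WT library. Mcoln1 was instead higher in every Zeb2 cKO library, as for 3.39% of all genes, with a log2 fold change of 0.17 (0.19 without WT replicate 2). Of the genes that sort or control lysosomal enzymes 3 of 11 were under -0.2 and 2 over 0.2 (median -0.13). Nagpa, which uncovers the mannose 6-phosphate tag, had a log2 fold change of -0.20 (SE 0.13), and the transcription factor Mitf one of 0.26 (SE 0.18). Without WT replicate 2 these were -0.16 and 0.13. Nagpa was also lower in every Zeb2 cKO than in every WT library, whereas the groups of Mitf overlapped.

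Markers of several other cell types, though not of all, moved with the same library. Of 24 macrophage markers 20 were highest in WT replicate 2, and their summed level was 298, 1139 and 401 CPM in WT replicates 1, 2 and 3 and between 353 and 375 CPM in Zeb2 cKO hearts. Cd163 and Timd4 were instead lowest there, at 1.62 and 0.433 CPM, while Lyve1, Mertk and Mrc1, also found in resident macrophages, were at 1.05, 1.25 and 1.76 times the median of the other libraries. Of 16 fibroblast and matrix markers 16 were highest in WT replicate 2, with sums of 2355, 12607 and 2898 CPM in WT and between 2264 and 3260 CPM in Zeb2 cKO hearts.

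Of 14 cardiomyocyte markers 13 were lowest in WT replicate 2, with sums of 74263, 38308 and 68464 CPM in WT and between 60920 and 73921 CPM in Zeb2 cKO hearts. Neutrophil markers were sparse, with sums between 1.498 and 5.06 CPM and no count of the granule protease gene Elane in any library. The 3 neutrophil markers tested had a median log2 fold change of -0.78, and of -0.89 without WT replicate 2. Without that library 2 of them, S100a8 and S100a9, were still under -0.2, and Csf3r was at 0.0078. Cardiomyocyte genes were thus abundant in all 6 libraries, as the label of the tissue has it. The part of these cells in the levels of the cathepsins was not tested.

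**Figure D5:**
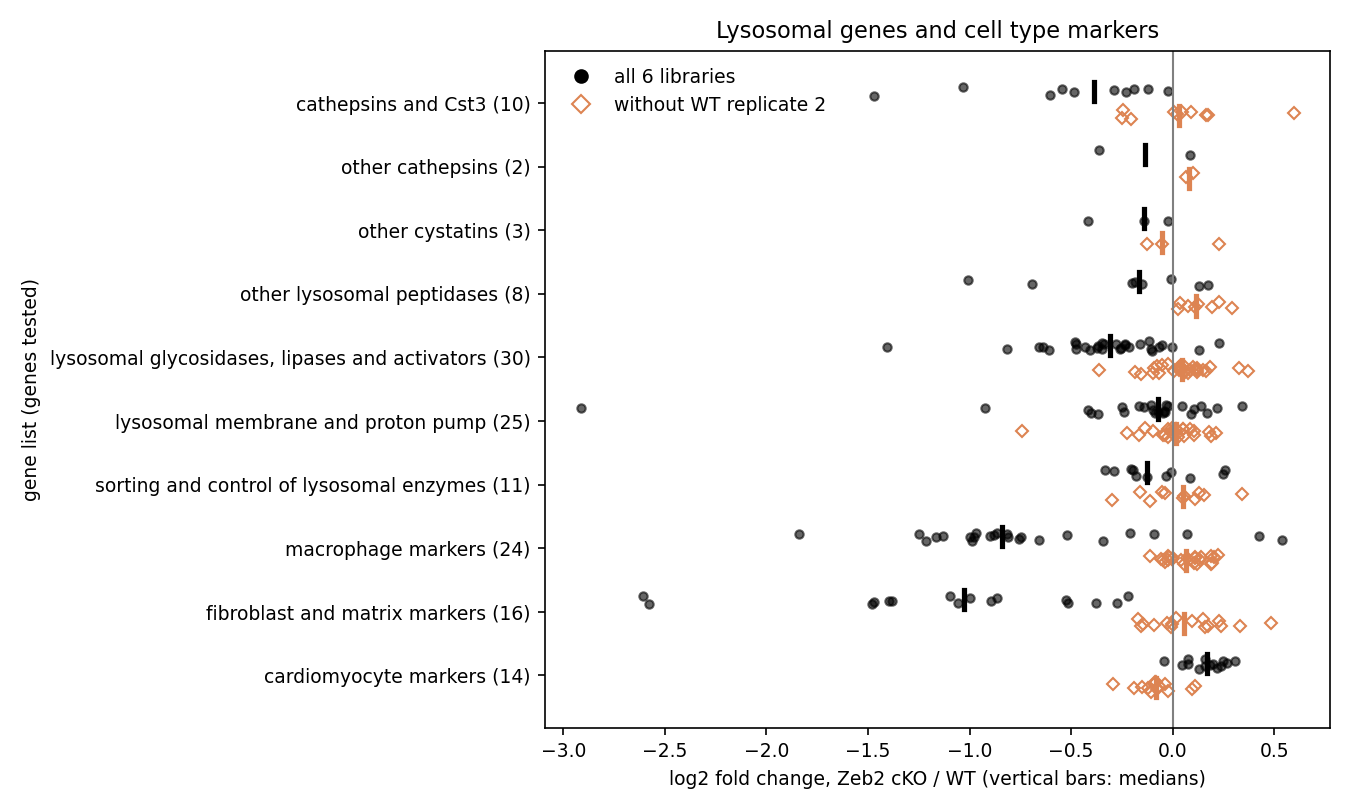
Log2 fold changes (Zeb2 cKO over WT) of the cathepsins and Cst3, of 6 lists of other lysosomal genes and of 3 lists of cell type markers, with 1 point per tested gene, from all 6 libraries (black) and without WT replicate 2 (open diamonds), and medians as vertical bars. The median of the cathepsins and Cst3 is -0.39 with all libraries and 0.032 without WT replicate 2, and those of the macrophage markers are -0.84 and 0.064.

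The genes most like the mean of the 10 over the 6 libraries, among 5865 genes with a mean of at least 10 CPM, were Sirpa (Pearson r of 0.9999 in log2 CPM), an inhibitory receptor of myeloid cells, Gpm6b (0.998) and Ptprc (0.997), the leukocyte antigen CD45. WT replicate 2 was at 2.32, 3.11 and 3.26 times the median of the other libraries in these genes, so that with 6 points a single library carries most of the likeness. For Ctss the nearest genes were H3f3b, Acsl5 and Kdelr2 (r of at least 0.9988), and for Ctsh they were Coro1b, Golim4 and the lysosomal lipase gene Lipa (at least 0.9967). Ctsd, with little spread to share, was nearest to Zfp386 (0.982), Rcor3 (0.960) and Bnip2 (0.953), in which WT replicate 2 was within 1.07 times the median of the others.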

How the data were processed

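Counts per gene came from RNA-seq of 3 WT and 3 Zeb2 cKO mouse hearts, grouped by their labels. Strand-specific libraries were made after removal of ribosomal RNA, single-end reads were aligned and counted in the STAR workflow (Gencode M4, GRCm38), and the authors deposited the raw counts. The STAR version, strand setting and handling of multiple hits are not given in the sources used here. The submitters' processing notes name DESeq 1.2, which was not used here.

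In edgeR 4.0.16 under R 4.3.3, TMM factors were computed, genes were kept by filterByExpr, and groups were compared with glmQLFit and glmQLFTest, with Benjamini-Hochberg adjustment over all 14746 genes kept. Log2 CPM used a prior count of 2. Names, positions and lengths came from Gencode M21 by gene identifier, and shared stretches (at least 75 bases at 95% identity) from BLAST 2.17.0. Exact permutation tests were two-sided. The self-test ran on simulated data. The methods call replicates biological, and the labels name no animals. Counting error is small at these depths beside the spread between libraries.

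The 10 genes, the lists of lysosomal genes and of 9 cell types, and the tests were chosen with earlier results of these data known. Genes were named by a rule: the 10 genes, Zeb2, the 2 genes with the smallest p in each list of other lysosomal genes, the 3 genes most correlated with each gene or with their mean, and the markers. Not all of these are printed. Neu1 and Mcoln1 were added after their values were seen. The log2 fold change cutoff of 0.2 follows the gene lists of the study. Alternatives covered normalization, filter, test, dispersion, prior count, mitochondrially encoded genes, the replicate number, transcript length and leaving out each library.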

Additional observations from a re-analysis of the deposited data

How the results depend on the processing

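No setting called any of the 10 genes at an adjusted p of 0.05, and DESeq2 called 2 other genes. Leaving out each library in turn gave 3 to 9 genes under a log2 fold change of -0.2, 0 to 1 over 0.2, 1 to 4 whose groups did not overlap, and a median between -0.72 and 0.032. The log2 fold changes then ran from -0.31 to 0.0050 for Ctsa, -0.25 to 0.0903 for Ctsb, -0.80 to 0.045 for Ctsc, -0.088 to 0.040 for Ctsd, -0.70 to 0.60 for Ctsk, -0.44 to 0.17 for Ctsl and -0.74 to 0.18 for Ctsz, with the upper end without WT replicate 2 except for Ctsd (without Zeb2 cKO replicate 3), and stayed below 0 for Ctsh (-1.33 to -0.25), Ctss (-1.89 to -0.20) and Cst3 (-0.79 to -0.25). Other lysosomal genes under -0.2 numbered 4 to 45 and those over 0.2 numbered 2 to 9. The difference of cysteine cathepsins per Cst3 was 0.109, between 0.0686 and 0.179 with a library left out. From sums without length normalization it was 0.63. That ratio is on a larger scale, with a WT mean of 2.51 against 0.741, so 0.63 and 0.109 are not directly comparable. The cause of the shifts with a library left out was not tested.

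Replicate numbers occur in both groups, but deviations of same-numbered libraries correlated at 0.0878, -0.138 and -0.0869, so the numbers were not read as pairs. With a replicate block 0 genes were called, 247 had an unadjusted p under 0.05, 5 of the 10 were under -0.2, the median was -0.24 and Ctsk was at 0.043. No library correlated best with its own number. Another normalization, no filter, robust dispersion, another prior count or leaving out mitochondrially encoded genes left all 10 below 0 and 7 under -0.2. With no filter, 3 of the 10 had an unadjusted p under 0.05 from edgeR, beside 600 of 24115 genes.

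Precision was limited by the spread between libraries, with a common biological coefficient of variation of 0.2435, and not by counting.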

Other observations

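Markers of 5 further cell types were also measured. Of 10 endothelial markers 7 were lowest in WT replicate 2, with a median log2 fold change of 0.15 that was -0.0061 without that library. The 5 mast cell markers tested had a median of -0.068 (-0.050 without that library). The 3 osteoclast markers tested, Acp5, Tnfrsf11a and Nfatc1, had a median of -0.50 (-0.039 without that library) and were all highest in WT replicate 2, whereas Calcr had 1 count in all and Ocstamp 3. Of the T and NK cell markers only Gzma was tested, with a log2 fold change of -0.27 that was 0.060 without WT replicate 2.

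Adipocyte markers were low except for Fabp4. Adipoq, named after its values were seen, was at 0.0796, 0.0456 and 0.1302 CPM in WT replicates 1, 2 and 3 and at 0.500, 0.184 and 0.167 CPM in Zeb2 cKO replicates 1, 2 and 3, from 52 counts in all, too few to pass the filter. Cidec, from 51 counts, was likewise lower in every WT library than in any Zeb2 cKO library, beside 3.39% of the genes tested. These values of Adipoq and Cidec were not tested. The 2 adipocyte markers tested, Fabp4 and Cfd, had overlapping groups and a median log2 fold change of 0.75 (0.53 without WT replicate 2).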
